A study of Mus musculus with 9 samples.

Results

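The 4 Hox clusters of the mouse genome were examined for binding of DPPA4, a nuclear protein of pluripotent cells, by chromatin immunoprecipitation and sequencing (ChIP-seq). Members were all peaks of the 6 deposited lists that overlapped a fixed window of the mm9 assembly around each cluster. The HoxA window ran on chromosome 6 from 52.10 to 52.22 Mb, the HoxB window on chromosome 11 from 96.04 to 96.25 Mb, the HoxC window on chromosome 15 from 102.74 to 102.87 Mb, and the HoxD window on chromosome 2 from 74.48 to 74.62 Mb. Together these 600 kb held 348 of the 229345 peaks. The peaks were selected on position, and the clusters themselves were chosen from earlier counts of peaks in these same lists, so counts and scores within the windows are a description with no test. The libraries came from 3 lines, with 2 immunoprecipitated libraries each. The E14 cells, mouse embryonic stem cells, grew on gelatin without feeders, in 2i medium with some serum. P19 is an embryonic carcinoma line, grown in DMEM with serum and glutamine. 3T3 is a fibroblast line, grown likewise, whose cells here expressed Dppa4 ectopically, and the labels do not say by which promoter or in how many clones. The same DPPA4 antibody served all lines, on sonicated nuclei. No immunoprecipitation from cells lacking Dppa4 and no input library was analysed here, and the labels do not tell whether a line's libraries came from different cultures. Their spread may therefore be technical. The lists hold neither read counts nor expression, so depth is unknown and the labelled cell types could not be checked by marker genes.

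Hox genes encode homeodomain transcription factors that give cells their position along the body axis. They lie in 4 clusters, and within a cluster the genes are used in the order in which they lie, those of low number first and nearest to the head. In embryonic stem cells the clusters are a textbook case of chromatin held silent by Polycomb proteins while carrying marks of activity too, whereas fibroblasts keep some Hox genes on according to where in the body they arose. DPPA4 works with its partner DPPA2 and is known to sit at many promoters rich in CG dinucleotides, including ones with such paired marks.

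The 38 Hox genes considered were all found in the RefSeq gene table, which belongs to another assembly (GRCm38) than the peaks. That table therefore gave the order of the genes but no position, and no peak was assigned to a gene. In HoxA the genes run from Hoxa2 at the low-coordinate side over Hoxa3, Hoxa4, Hoxa5, Hoxa6, Hoxa7, Hoxa9, Hoxa10 and Hoxa11 to Hoxa13. In the other clusters the order is turned. HoxB runs from Hoxb13 to Hoxb1, HoxC from Hoxc13 to Hoxc4, and HoxD from Hoxd13 to Hoxd1.

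RefSeq promoter sequences were at hand for 22 of the 38 genes, 24 sequences in all, each reaching from 250 bases before the start site to 50 after it. HoxA and HoxD gave 10 sequences each and HoxB 3, while HoxC gave only 1, that of Hoxc4. The median Hox promoter held 14.5 CG dinucleotides and 57.7% G or C, against 7 and 52.7% over 32851 promoters of 27025 genes. At least 10 CG dinucleotides stood in 70.8% of the Hox promoters and in 43.5% of all, and at least 1 in 100% and 94.6%. CG reads the same on both strands. The range was wide, from 4 for Hoxa9, Hoxd4 and 1 of the 2 Hoxd11 sequences to 45 in that of Hoxa13. To show this feature, the 250 bases before the start site are printed 5′ to 3′ for the promoter of each cluster with the most CG dinucleotides in that stretch, with every CG in capitals. These are Hoxa13 at chr6:52260881-52261130 on the minus strand, Hoxb4 at chr11:96318017-96318266, Hoxc4 at chr15:103034145-103034394 and Hoxd13 at chr2:74667975-74668224, the last 3 on the plus strand, all in GRCm38.p6. They hold 35, 14, 8 and 31 CG dinucleotides. These positions cannot be set against the mm9 peaks, so whether DPPA4 lay on these stretches was not tested.
Hoxa13: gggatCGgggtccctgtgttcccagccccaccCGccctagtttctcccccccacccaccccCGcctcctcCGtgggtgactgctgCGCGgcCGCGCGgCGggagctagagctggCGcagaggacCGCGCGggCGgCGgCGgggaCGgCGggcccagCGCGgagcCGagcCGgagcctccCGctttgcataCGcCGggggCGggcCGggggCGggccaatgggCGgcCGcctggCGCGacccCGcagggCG
Hoxb4: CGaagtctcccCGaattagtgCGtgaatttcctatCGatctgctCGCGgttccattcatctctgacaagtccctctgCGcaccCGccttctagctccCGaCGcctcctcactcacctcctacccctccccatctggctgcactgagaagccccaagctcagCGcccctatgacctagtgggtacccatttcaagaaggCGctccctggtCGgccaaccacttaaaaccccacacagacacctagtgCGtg
Hoxc4: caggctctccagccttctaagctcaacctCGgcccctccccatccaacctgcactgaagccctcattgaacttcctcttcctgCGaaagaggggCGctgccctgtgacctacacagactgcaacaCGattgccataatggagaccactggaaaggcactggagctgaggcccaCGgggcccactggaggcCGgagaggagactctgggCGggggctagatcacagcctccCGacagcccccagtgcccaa
Hoxd13: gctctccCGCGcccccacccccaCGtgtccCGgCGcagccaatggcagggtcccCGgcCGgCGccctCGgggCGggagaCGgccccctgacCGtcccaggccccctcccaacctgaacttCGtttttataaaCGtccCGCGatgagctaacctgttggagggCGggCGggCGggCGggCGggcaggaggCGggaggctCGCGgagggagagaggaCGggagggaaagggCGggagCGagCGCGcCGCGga

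DPPA4 peaks were dense in the Hox windows of all 3 lines. The E14 libraries held 50 and 49 peaks there, the P19 libraries 74 and 73, and the 3T3 libraries 47 and 55. The mean was 73.5 ± 0.707 for P19, 51 ± 5.66 for 3T3 and 49.5 ± 0.707 for E14 (SD, n = 2). The P19 counts lay above those of the other lines, while the E14 counts fell within the 3T3 range. This order rests on the full lists, and it turned when each list was cut to the 15462 peaks of highest score, the length of the shortest. The 3T3 libraries then held 47 and 48 Hox peaks, the P19 libraries 30 and 15, and the E14 libraries 6 and 6, with no overlap between lines. Set against the whole genome, peaks per Mb were 3.6-fold and 5.0-fold higher in the windows for E14, 8.20-fold and 6.31-fold for P19, and 13.5-fold and 13.9-fold for 3T3. The 3T3 lists were far shorter than the others (15462 and 17540 peaks, against 40011 to 61693), so a like number of Hox peaks was a larger part of them. Per 10000 peaks of a list, 30.4 and 31.4 lay in the Hox windows in 3T3, 18.5 and 14.3 in P19 and 8.10 and 11.3 in E14, and no 2 lines overlapped. No difference between lines is called from these counts, since they chose the clusters and, at n = 2 in each line, 0.33 is the smallest two-sided p of an exact permutation test. In such lists a site bound weakly in all cells and a site bound in a few cells cannot be told apart.

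**Figure D1:**
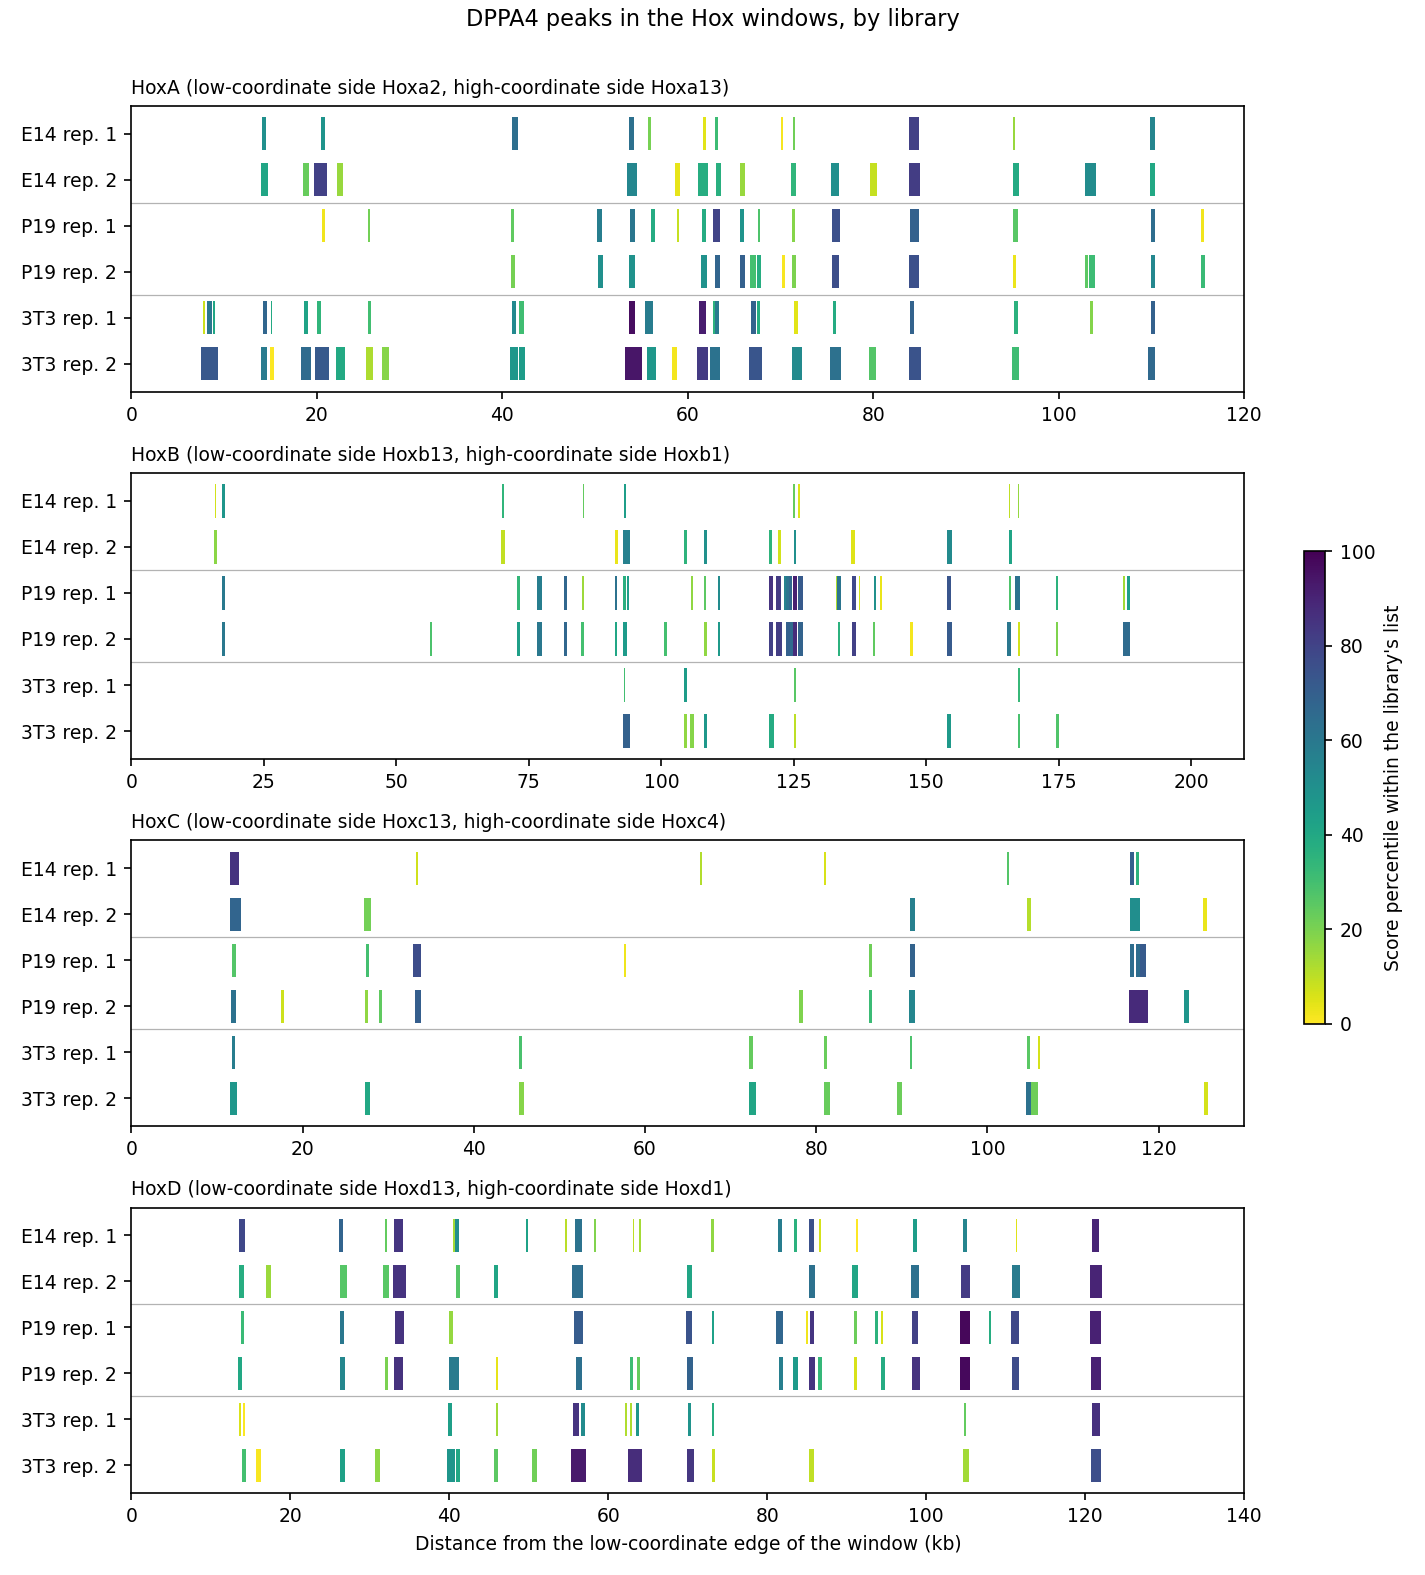
Each bar is a DPPA4 peak, placed by its distance from the low-coordinate edge of the window (kb) and coloured by its score percentile within the library's list; rows are the 6 libraries. HoxA is most crowded in the 3T3 rows, with 23 and 22 peaks, and HoxB in the P19 rows, with 30 and 26.

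The clusters differed in which line had the most peaks. For HoxA the counts were 23 and 22 in 3T3, 17 and 17 in P19, and 12 and 16 in E14. In HoxB the counts were 30 and 26 for P19, 9 and 12 for E14, and 4 and 9 for 3T3. The 3T3 libraries thus exceeded all others in HoxA, and the P19 libraries exceeded all others in HoxB. HoxC held the fewest peaks of the clusters in E14 and P19, namely 7 and 6 for E14 and 9 and 10 for P19, beside 7 and 9 for 3T3. HoxD had 13 and 15 in 3T3, 18 and 20 in P19, and 22 and 15 in E14, so that E14 overlapped with both other lines. As a share of the window covered by peaks, HoxA had 8.16% and 18.6% in 3T3, 6.55% and 7.28% in P19 and 4.32% and 10.6% in E14. HoxB had 7.60% and 8.14% in P19, 1.36% and 3.92% in E14 and 0.701% and 3.21% in 3T3. By this measure P19 still lay above the other lines in HoxB, whereas in HoxA 3T3 lay above P19 and E14 overlapped with both. The median peak of replicate 2 was wider than that of replicate 1 in each line, which enters these shares.

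**Figure D2:**
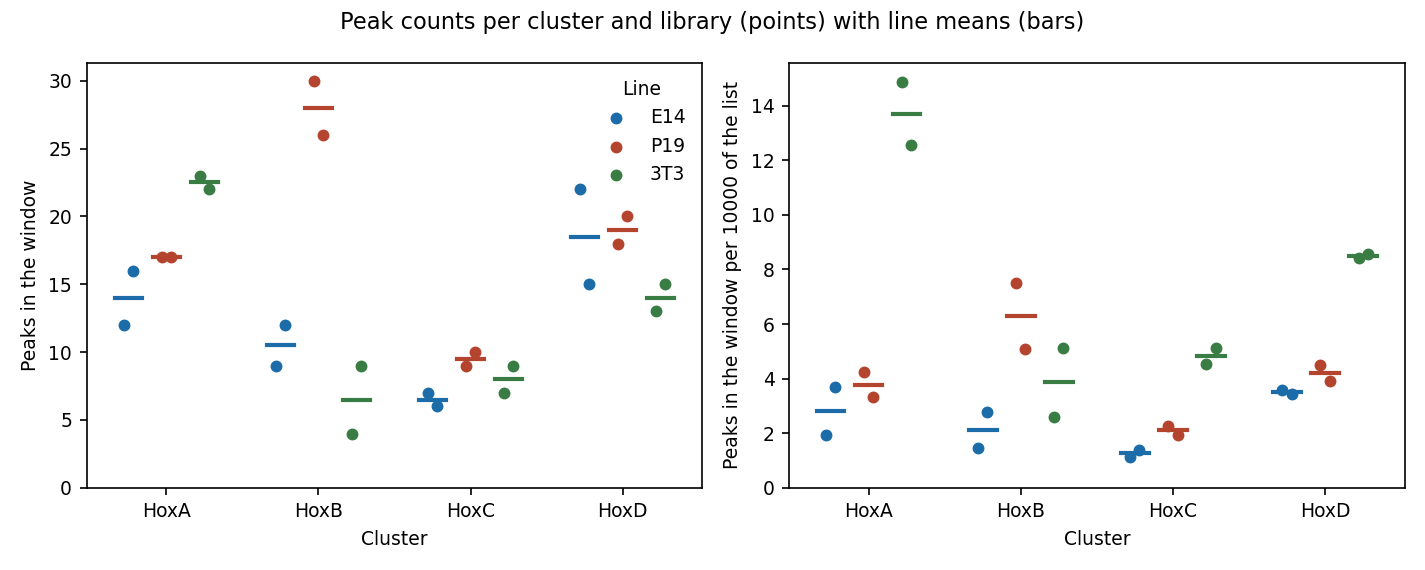
Peaks per cluster as counts (left) and per 10000 peaks of the list (right); points are libraries and bars the mean of a line. The 3T3 points stand highest in HoxA in both panels, while the P19 points stand clear of the others in HoxB only on the left.

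The excess of 3T3 in HoxA and of P19 in HoxB was set against all windows of the same length laid end to end along the chromosomes. Among 17768 windows of 120 kb with any peak, both 3T3 libraries exceeded the other 4 libraries in 68, or 0.383%. In HoxA the lower 3T3 count was 5 above the highest count of the other lines. A margin of at least 5 occurred in 1 window (0.00563%), which overlapped HoxA itself, and the largest margin elsewhere was 2. Among 11437 windows of 210 kb, both P19 libraries exceeded the others in 3.56%. In HoxB the lower P19 count was 14 above the highest other count. That margin too was reached in 1 window (0.00874%), which overlapped HoxB, and the largest elsewhere was 8. For HoxC and HoxD no line stood above the others in both libraries. HoxA with 3T3 and HoxB with P19 were taken up after their counts were seen. The shares of windows therefore describe where they lie and do not measure chance.

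**Figure D3:**
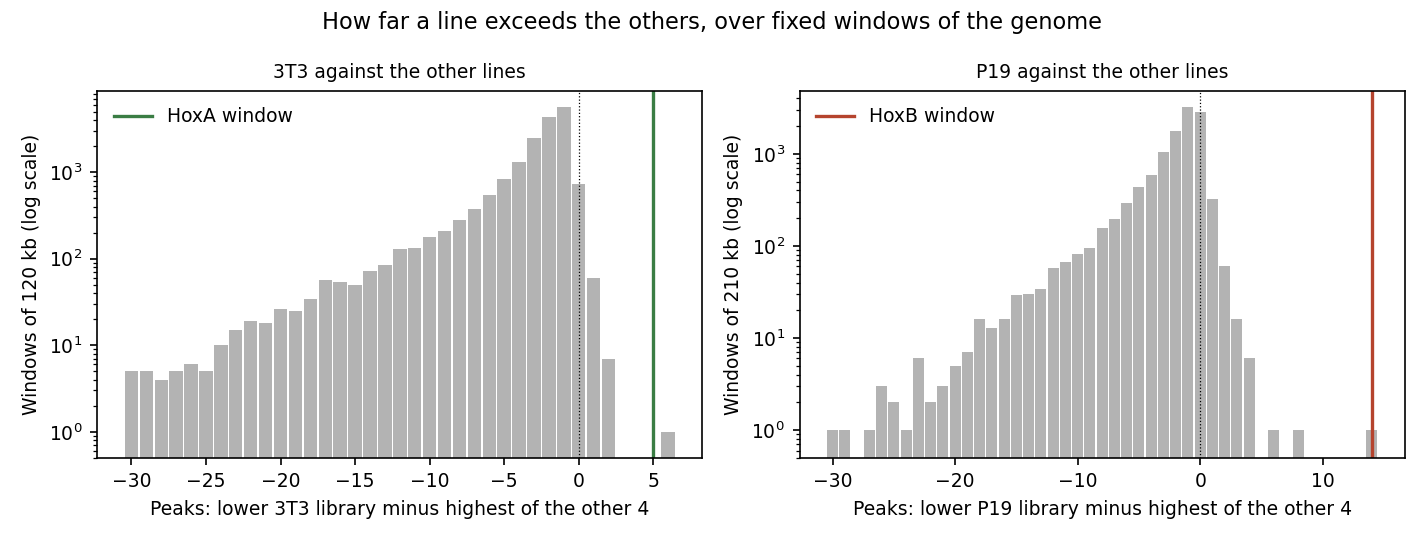
Number of fixed windows (log scale) by the difference between the lower library of a line and the highest of the other 4 libraries, for 3T3 in windows of 120 kb (left) and P19 in windows of 210 kb (right); windows under -30 are not drawn. The coloured lines mark HoxA at 5 and HoxB at 14, to the right of all windows but those on the clusters themselves. Both clusters and lines were picked after their counts were seen, so the position is a description.

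The length of the lists bears on both results. When each list was cut to its 15462 peaks of highest score, HoxA held 23 and 20 peaks in 3T3 against 4 and 2 in P19 and 1 and 2 in E14. In HoxB the limited lists gave 12 and 5 in P19, 4 and 8 in 3T3 and 0 and 0 in E14, so that P19 stayed above E14 but overlapped with 3T3. The lower P19 count was then 3 below the higher 3T3 count, a margin of -3.

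The share of windows with counts as high as those of a cluster differed by cluster and line. For HoxA, 0.0225% and 0.0169% of the 120 kb windows held as many peaks in the 3T3 libraries, 0.788% and 1.5% in P19, and 5.04% and 0.929% in E14. For HoxD, 0.195% and 0.132% of the 140 kb windows did so in 3T3, 0.913% and 1.32% in P19 and 1.63% and 1.57% in E14. For HoxC the shares of 130 kb windows were 1.38% and 0.781% in 3T3, 4.64% and 5.89% in P19, and 13.8% and 10.3% in E14. For HoxB the shares of 210 kb windows were 11.1% and 2.12% in 3T3, 0.490% and 1.52% in P19, and 16.2% and 5.76% in E14. The 3T3 shares lay below those of both other lines in HoxA, HoxC and HoxD, whereas in HoxB the P19 shares were lowest and those of 3T3 and E14 overlapped. As the clusters were chosen from such counts, these shares too are a description.

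Although dense, Hox peaks of E14 and 3T3 ranked low in the authors' score, and those of P19 near the middle. Scores were turned into percentiles within a list (100 for the strongest peak), since their scale is not named. The median percentile of the Hox peaks was 51.0 and 47.7 for the P19 libraries, 37.3 and 40.3 for the 3T3 libraries and 29.2 and 40.2 for the E14 libraries, against about 50 for a whole list by construction. Peaks at or above percentile 90 numbered 3 and 2 for P19, 2 and 2 for 3T3 and 0 and 1 for E14. The highest score, 3100 in both P19 libraries, was reached at a single site, in HoxD. Replicates shared Hox peaks to differing degrees. In E14, 58.0% (Wilson 95% interval 44.2 to 70.6) and 57.1% (43.3 to 70.0) of the Hox peaks overlapped a peak of the other library, against 66.7% and 86.5% of all peaks. In P19 the shares were 81.1% and 76.7%, against 87.7% and 65.2% of all peaks. In 3T3 they were 89.4% and 65.5%, against 86.8% and 63.9%. The intervals cover counting error only.

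Regions found in both libraries of a line were joined over the lines into 74 Hox regions, 21 in HoxA, 25 in HoxB, 10 in HoxC and 18 in HoxD. A region belonged to a line where overlapping peaks of both its libraries lay in it. E14 held 28 of them, P19 55 and 3T3 36. Their median width was 860 bp, from 364 to 2226 bp.

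In HoxA, 3T3 held 18 regions, P19 13 and E14 9. The 7 regions of all lines lay between 52153179 and 52210377 on chromosome 6, from near the middle of the window towards the Hoxa13 side. The widest of them, from 52153179 to 52155075, was 1897 bp wide and scored 656 and 923 in 3T3, 177 and 137 in P19, and 190.1 and 143 in E14. Within the lists this was percentile 96.6 and 94.5 in 3T3, 60.9 and 49.6 in P19 and 63.6 and 54.0 in E14, so 3T3 stood apart from the other lines. In a region from 52160986 to 52162198 3T3 was again highest, with percentiles of 92.1 and 83.1 in 3T3, 38.6 and 49.4 in P19, and 4.66 and 37.7 in E14. Its neighbour from 52162436 to 52163600 was instead highest in P19, at 79.8 and 67.8, against 59.3 and 62.5 in 3T3 and 31.6 and 37.0 in E14. The best-ranked HoxA region over all lines, from 52183805 to 52185190, lay at 80.7 and 82.3 for E14, 69.4 and 75.6 for P19, and 68.6 and 74.6 for 3T3. The remaining regions of all lines were from 52171154 to 52172284, from 52194966 to 52195700 and from 52209661 to 52210377. None of these reached percentile 70 in any library.

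The 6 HoxA regions held by 3T3 alone all lay below the midpoint of the window, towards Hoxa2. On that side the 3T3 libraries held 12 and 13 peaks, the E14 libraries 5 and 6, and the P19 libraries 7 and 3. On the other side the counts were 11 and 9 in 3T3, 7 and 10 in E14, and 10 and 14 in P19, and the lines overlapped. The best ranked of them ran from 52107495 to 52109300, scored 131 and 327, and had no peak in any E14 or P19 library. Of the other 5, 2 had no such peak either, and 3 had peaks in 1 or 2 of the E14 and P19 libraries. E14 had no region from 52121129 to 52153492, a stretch of 32.4 kb in which 3T3 held 3 regions and P19 held 2. Peaks of single E14 libraries did lie there, at different places. They stood at percentile 63.9 in replicate 1 and 15.4 in replicate 2. The 3 regions of P19 alone were led by the one from 52165603 to 52166140, which scored 122 and 273.

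In HoxB, P19 held 22 regions, E14 5 and 3T3 4. Of the 25 regions, 18 were held by P19 alone. With a peak in either library counted, however, E14 covered 13 of the 22 P19 regions and 3T3 covered 7. The centre was a run of 5 neighbouring regions from 96160249 to 96166758, singled out after its values were seen. P19 peaks covered 73.8% and 77.6% of these 6510 bp, E14 peaks 9.11% and 27.3%, and 3T3 peaks 5.10% and 22.5%. The percentiles of its peaks ran from 55.4 to 91.4 and from 65.8 to 87.7 in the P19 libraries, from 5.40 to 23.2 and from 6.65 to 50.3 in the E14 libraries, and from 9.88 to 38.7 in 3T3 replicate 2. The single peak of 3T3 replicate 1 there lay at 25.9. All P19 peaks of the run thus ranked above those of the other lines.

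By mean percentile over the lines that hold a region, the best ranked of the cluster was the first region of the run, from 96160249 to 96161103. Its percentiles were 84.8 and 81.2 in P19. It had a peak in E14 replicate 2 and in 3T3 replicate 2, at percentiles 34.8 and 38.7. The next, from 96161576 to 96162722, lay at 82.6 and 82.3 in P19. The widest, from 96163128 to 96164766, lay at 66.6 and 69.6 and had no peak in the E14 or 3T3 libraries. The region from 96164789 to 96165653 was held by all lines and scored 1326 and 843 in P19, 67.2 and 129 in E14 and 65.0 and 58.3 in 3T3. Its percentiles were 91.4 and 87.7 in P19, 23.2 and 50.3 in E14, and 25.9 and 9.88 in 3T3, so P19 stood apart. Within the P19 libraries this region ranked above the first of the run. Outside the run, a region of P19 alone from 96175887 to 96176765 lay at percentiles 78.4 and 80.7. The second region of all lines, from 96132676 to 96134141, had overlapping percentiles in the lines, 44.4 and 56.4 for E14, 44.5 and 45.5 for P19 and 30.2 and 69.4 for 3T3. E14 alone held a region from 96109821 to 96110471, at percentiles 34.7 and 9.16, and 3T3 alone one from 96144281 to 96144896, at 44.9 and 16.4.

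In HoxB both P19 libraries held fewer peaks on the Hoxb13 side of the window than on the Hoxb1 side, which did not hold for replicate 1 of E14 or 3T3. No region of any line lay from 96057729 to 96109820, a gap of 52.1 kb, though P19 replicate 2 had a peak there at percentile 28.2. Towards Hoxb1, 3T3 had no region from 96165488 to 96207213, where P19 held 6 and E14 1. A peak of 3T3 replicate 2 alone lay there, at percentile 46.3. Above the midpoint the P19 libraries held 22 and 17 peaks, against 4 and 7 in E14 and 2 and 7 in 3T3. Below it they held 8 and 9, against 5 and 5 in E14 and 2 and 2 in 3T3.

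In HoxC, P19 held 6 regions, 3T3 5 and E14 2. The region of all lines, from 102751503 to 102752784 near the Hoxc13 side, lay at percentiles 85.3 and 67.8 for E14, 26.8 and 62.9 for P19 and 58.1 and 47.2 for 3T3. The second E14 region was shared with P19 and was the widest of all 4 clusters, with 2226 bp from 102856549 to 102858774, towards Hoxc4. It scored 266 and 895 in P19 and 243 and 131 in E14, and no 3T3 peak overlapped it. Between these, E14 had no region over 104 kb, while P19 and 3T3 held 4 regions each there. Each of those 8 regions was held by a single line, though 2 of the P19 regions had a peak in 1 of the 3T3 libraries. Regions of both lines there also had a peak in 1 E14 library. One was the P19 region from 102830870 to 102831559, at percentile 56.8 in E14 replicate 2. With a peak in either library counted, E14 covered 5 of the 6 P19 regions of HoxC and 3 of the 5 3T3 regions. P19 held 1 of the 5 3T3 regions of HoxC, or 20% (Wilson 95% interval 3.62 to 62.4), against 68.3% of all 3T3 regions. The best ranked of P19 alone ran from 102772902 to 102773885, at percentiles 76.7 and 70.5, and the next from 102830870 to 102831559, at 68.5 and 54.3. The best ranked of 3T3 alone, from 102844458 to 102845030, lay at 25.7 and 63.2.

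In HoxD, P19 held 14 regions, E14 12 and 3T3 9. Of the 12 E14 regions, 11 were held by P19, or 91.7% (64.6 to 98.5), an interval that takes in the 68.8% of all E14 regions. Of the 18 HoxD regions, 6 were held by E14 and P19 without 3T3, a kind that made up 40.2% of all regions. The best-ranked Hox region over all lines ran from 74600552 to 74602073, near the Hoxd1 side, and scored 671 and 598 for E14, 1236 and 1212 for P19, and 307 and 376 for 3T3. It lay at percentiles 89.6 and 90.2 for E14, 90.9 and 90.8 for P19 and 86.0 and 76.3 for 3T3. The region from 74584245 to 74585547 held the peaks at 3100 in both P19 libraries. There E14 scored 141 and 387 and 3T3 63.8 and 62.6, so the percentiles were 98.1 and 97.8 in P19, 54.6 and 82.7 in E14 and 24.2 and 14 in 3T3, without overlap between lines.

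The order was turned in another HoxD region. The one from 74535355 to 74537171, the widest of the cluster, lay at percentiles 85.1 and 93.3 in 3T3, 71.1 and 63.7 in P19 and 61.9 and 64.4 in E14. Next to it, from 74542458 to 74544188, was the best ranked of 3T3 alone, at 47.4 and 87.1, with 2 peaks each in E14 replicate 1 and P19 replicate 2. Held by E14 and P19 were a region from 74512866 to 74514529, at 84.7 and 85.2 in E14 and 85.5 and 85.8 in P19 with no 3T3 peak, and one from 74565205 to 74565988, at 75.0 and 63.0 in E14 and 84.5 and 84.9 in P19. The latter had a peak in 3T3 replicate 2 at percentile 9.52. P19 alone was led by a region from 74561092 to 74561960, at 67.3 and 57.1, and the region of E14 alone, from 74511705 to 74512379, lay at 24.1 and 26.0. The other regions of all lines, from 74493440 to 74494376 and from 74519672 to 74521369, had overlapping percentiles in E14 and P19.

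The position of the peaks within HoxD also differed. On the side of the midpoint towards Hoxd13, the 3T3 libraries held 9 and 10 peaks, the E14 libraries 12 and 8, and the P19 libraries 5 and 9. On the side towards Hoxd1, 3T3 held 4 and 5, E14 10 and 7, and P19 13 and 11, so 3T3 lay below both other lines. From 74553427 to 74584625, over 31.2 kb, 3T3 had no region, while P19 held 5 and E14 3. A peak of 3T3 replicate 2 alone lay there, at percentile 9.52.

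Hox regions were divided among the lines otherwise than regions of the whole genome. Regions of P19 alone made up 27 of the 74, or 36.5%, against 13.7% of 45616 regions genome-wide, and 18 of these lay in HoxB. Regions of 3T3 alone made up 14, or 18.9%, against 4.37%. Regions of E14 and P19 without 3T3, the most frequent kind genome-wide with 40.2%, made up 8, or 10.8%, and 6 of these lay in HoxD. Regions of all lines made up 15, or 20.3%, against 15.4%. P19 with 3T3 shared 5 (6.76% against 1.10%), E14 with 3T3 2 (2.70% against 3.27%), and E14 alone held 3 (4.05% against 22%). Among the regions of P19 alone, 12 of 27 had no peak in any E14 or 3T3 library (44.4%, against 42.8% genome-wide). Among those of 3T3 alone it was 5 of 14 (35.7%, against 37.9%). These shares are near the background.

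Seen from P19 and 3T3, Hox regions of the 4 clusters together were less often E14 regions than elsewhere. The clusters differed, and in HoxD the P19 share was near that of the genome. E14 held 23 of the 55 P19 regions, or 41.8% (Wilson 95% interval 29.7 to 55.0), against 79.4% of all P19 regions. This was 3 of 22 in HoxB (13.6%) and 2 of 6 in HoxC (33.3%). In HoxA it was 7 of 13 (53.8%) and in HoxD 11 of 14 (78.6%). E14 held 16 of the 36 3T3 regions, or 44.4% (29.5 to 60.4), against 77.6%. By cluster this was 9 of 18 in HoxA, 2 of 4 in HoxB, 1 of 5 in HoxC and 4 of 9 in HoxD. P19 held 20 of the 36 3T3 regions, or 55.6% (39.6 to 70.5), against 68.3%, a value inside the interval. Seen from E14 the order turned. P19 held 23 of the 28 E14 regions, or 82.1% (64.4 to 92.1), against 68.8%, and 3T3 held 16, or 57.1% (39.1 to 73.5), against 23.6%. Those held by 3T3 were 9 of 9 in HoxA, 2 of 5 in HoxB, 1 of 2 in HoxC and 4 of 12 in HoxD. 3T3 also held 20 of the 55 P19 regions, or 36.4% (24.9 to 49.6), against 24%. With a peak in either library counted, E14 covered 74.5% of the P19 Hox regions and 80.6% of the 3T3 Hox regions, against 91.0% and 89.6% genome-wide. In HoxB it so covered 13 of the 22 P19 regions (59.1%), although only 3 were E14 regions. With lists of 15462 peaks E14 kept 4 Hox regions in all. It then held 3 of 15 P19 Hox regions (20%, against 70.0% of all P19 regions at that length) and 3 of 33 3T3 Hox regions (9.09%, against 36.7%). At that length P19 held 4 of the 33 3T3 Hox regions (12.1%), below the 33.7% of the genome. 3T3 held 3 of the 4 E14 regions (75%, against 30.9%). E14 regions held by P19 (75% against 73.3%) and P19 regions held by 3T3 (26.7% against 27.2%) were then near the genome's share.

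**Figure D4:**
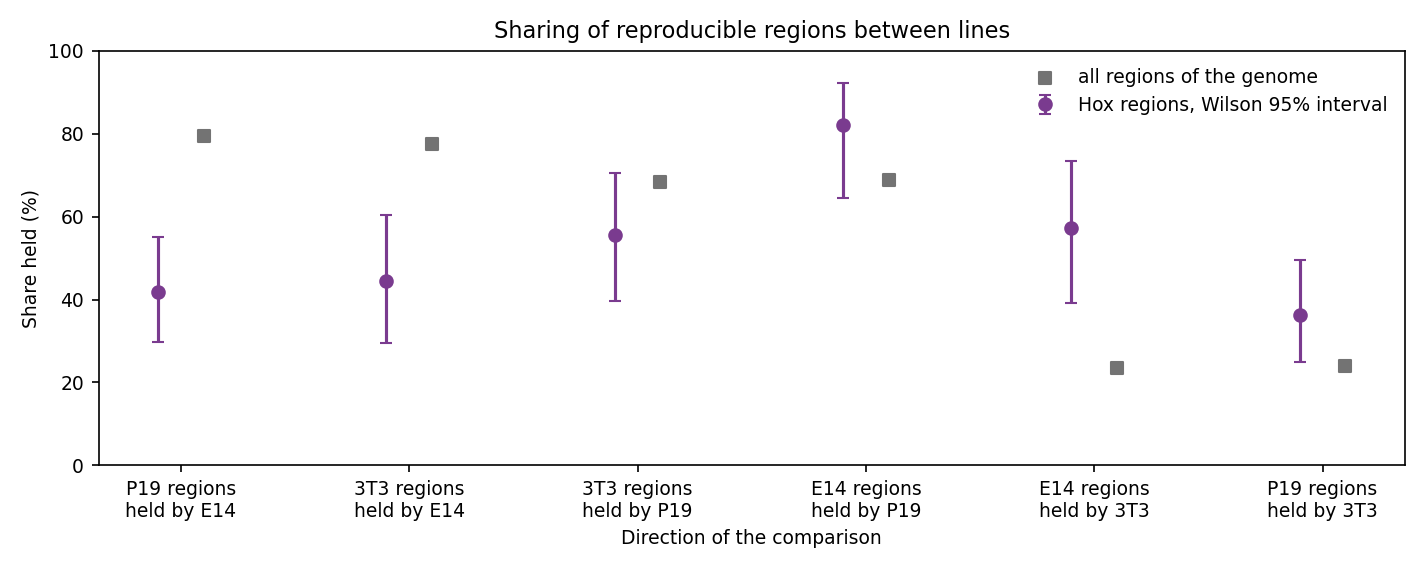
Share of the reproducible regions of a line that overlapped a reproducible region of another line, for the Hox regions (circles, with Wilson 95% intervals for counting error) and the whole genome (squares). The Hox circles stand below the squares for P19 and 3T3 regions held by E14, at 41.8% and 44.4%, and above it for E14 regions held by 3T3, at 57.1%.

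Weaker regions were less often shared genome-wide, and the Hox regions ranked lower than others. Their median mean percentile was 47.3 in E14, 57.2 in P19 and 50 in 3T3, against 61.6, 61.3 and 62.9 for all regions. Within regions at percentile 50 or above, E14 held 14 of 32 P19 Hox regions (43.8%, interval 28.2 to 60.7), against 90.9% of such P19 regions genome-wide. Below 50 it held 9 of 23 (39.1%, 22.2 to 59.2), against 59%. For the 3T3 regions E14 held 10 of 18 (55.6%, 33.7 to 75.4) against 85.3% from percentile 50 up and 6 of 18 (33.3%, 16.3 to 56.3) against 62.6% below. 3T3 held 9 of 13 E14 Hox regions (69.2%, 42.4 to 87.3) against 29.3% from 50 up and 7 of 15 (46.7%, 24.8 to 69.9) against 13.5% below. In these 3 comparisons, and in the 3 that follow, the difference from the genome had the same direction on both sides of percentile 50. The split was made after values were seen and scores were not matched within a side. How far score bears on the sharing was therefore not tested. Some of the intervals took in the share of the genome. P19 held 12 of 13 E14 regions (92.3%, 66.7 to 98.6) against 85.4% from 50 up and 11 of 15 (73.3%, 48.0 to 89.1) against 39.3% below. It held 12 of 18 3T3 regions (66.7%) against 75% from 50 up and 8 of 18 (44.4%) against 55.4% below. 3T3 held 10 of 32 P19 regions (31.2%) against 27.8% from 50 up and 10 of 23 (43.5%) against 17.3% below.

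Covered bases were also compared between single libraries by the Jaccard index, which divides the bases covered in both by those covered in at least 1 of them. Within the Hox windows it was 0.57 for the P19 pair, 0.35 for the 3T3 pair and 0.30 for the E14 pair. Over the genome it was 0.55, 0.39 and 0.53, so the E14 libraries were less alike in the Hox windows than elsewhere. For an E14 with a P19 library it was 0.27 to 0.38, against 0.43 to 0.51 over the genome. For an E14 with a 3T3 library it was 0.21 to 0.36, against 0.16 to 0.27. In HoxB the P19 libraries reached 0.64, whereas E14 and P19 libraries shared 0.12 to 0.28. In HoxD the E14 and P19 libraries shared 0.40 to 0.54, a range around the genome's.

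The 15 regions of all lines, which had a peak in all 6 libraries, were compared by percentile. Their median percentile was 60.9 and 58.8 for the P19 libraries, 58.1 and 62.5 for the 3T3 libraries and 54.6 and 50.3 for the E14 libraries. Over the 7042 regions of all lines in the genome it was 67.4 and 75.5, 70.0 and 75.4, and 81.0 and 75.6, in the same order. Both 3T3 libraries stood above the other 4 in 4 of the 15 (28.1% genome-wide), 3 of them in HoxA. Both P19 libraries did so in 4 (15% genome-wide), with 2 of them in HoxD, and both E14 libraries in 2 (15.8% genome-wide). In 3 regions, all in HoxD, both 3T3 libraries stood below the other 4, as in 1928 of the 7042 genome-wide. The counts for 3T3 and E14 were near the shares of the genome, and only the P19 count was above its share. With 15 regions, no difference from the genome is read from these counts. Across these 15 regions Spearman's rho was 0.82 for the 3T3 pair, 0.81 for the P19 pair and 0.64 for the E14 pair. It ranged from 0.25 to 0.61 between E14 and P19, from 0.19 to 0.28 between E14 and 3T3, and from -0.04 to 0.20 between P19 and 3T3. These are values across regions that share clusters and libraries, given as a description.

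**Figure D5:**
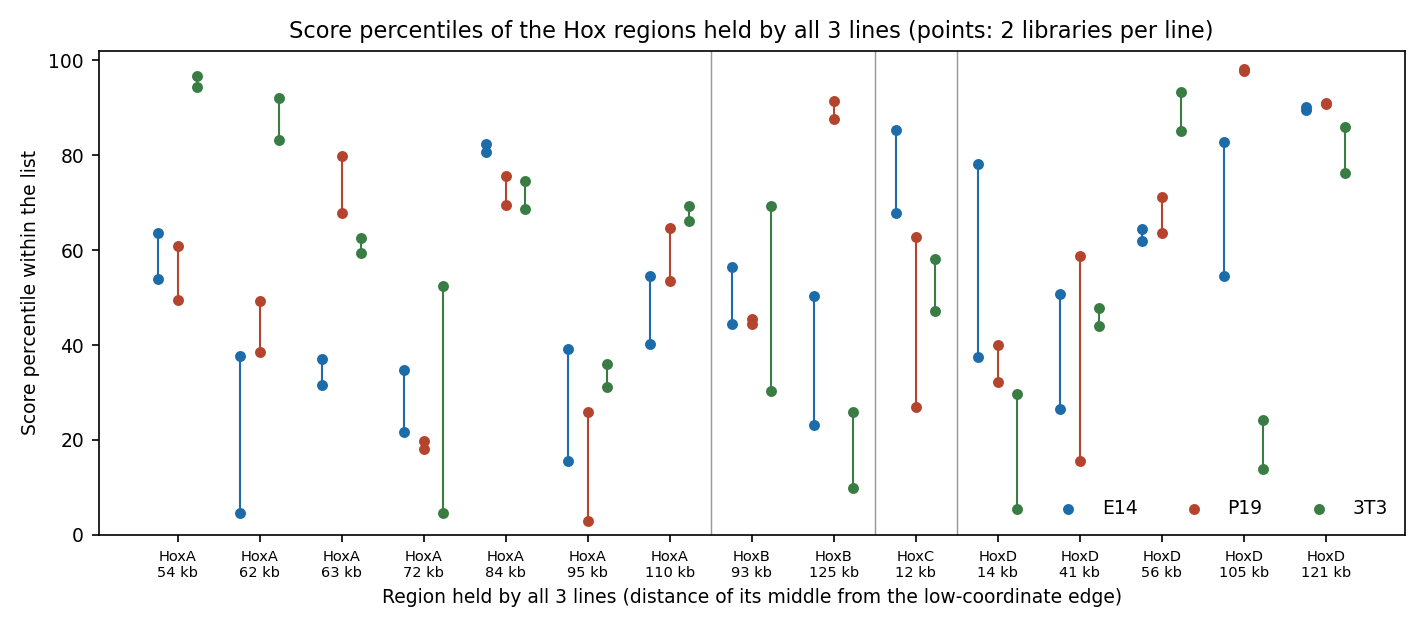
Score percentile within the list for the 15 Hox regions held by all lines, with a point per library and a line joining the 2 libraries of a cell line. At HoxA 54 kb the 3T3 points, at 96.6 and 94.5, stand above the others, and at HoxD 105 kb the P19 points, at 98.1 and 97.8, do.

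The edges of the windows cut few peaks off. Below HoxA the nearest peak of any library lay 51.9 kb or more away, and above it E14 and P19 had a peak at 3.44 to 3.55 kb, which scored 897 and 968 in P19 and 133 and 131 in E14. The nearest 3T3 peak above HoxA was 43.6 kb away or more. Below HoxB a P19 replicate 2 peak with a score of 61.9 lay 0.53 kb outside, while the first peak of that library inside stood 17 kb from the edge and scored 190.2. Above HoxB the nearest peaks lay at 1.89 kb in E14 and 18.5 kb in P19. HoxC had no peak within 100 kb below it in any library, and peaks of E14 replicate 2 and both P19 libraries at 1.35 to 1.43 kb above. HoxD had no peak nearer than 62.5 kb below or 43.6 kb above. The 100 kb on both sides of a window held 2 or 3 peaks per library around HoxD. Around HoxA they held 2 and 2 in 3T3 and 7 or 8 in each E14 and P19 library, so the excess of 3T3 in HoxA was not seen in its flanks. Around HoxB they held 11 and 14 in P19, 8 and 7 in E14, and 1 and 1 in 3T3, the same order of lines as P19 over E14 over 3T3 by mean count in the window. Around HoxC they held 5 to 7 in E14 and P19 and 1 or 2 in 3T3.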

How the data were processed

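DPPA4 ChIP-seq peak lists of 6 libraries were used, 2 per line, and the 3 input libraries were not used. BWA 0.7.13-r1126, SAMtools 1.3, bcl2fastq 1.8, CASAVA 1.8 and the build mm9 are named, without their roles, in the submitters' processing notes. The deposited peak names begin with MACS, a peak caller. Version, threshold and control: not given in the sources used here. Each library has its own list. A deposited list gives position, name and a score from the authors' caller, from 50 upwards, whose scale is not named. Scores are printed as deposited, and libraries were compared by the percentile within each list. Depth is unknown.

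Windows, members and gene lists were chosen with earlier results of these data known. Peaks sharing at least 1 bp were joined, and a region of a line needed peaks of both libraries. Fixed windows started at the chromosomes' first base, and those without any peak were left out. Text names, in each cluster, regions of all lines, the 3 best ranked by mean percentile, the widest, and the best ranked of each single line. The mean was taken over the libraries of the lines that hold a region. Other regions named bound a stretch. The planned assignment to genes was not run, since the gene table belongs to GRCm38. The split at percentile 50 and the window margins were added after values were seen. Alternatives were the best-scoring 50% of each list, lists of 15462 peaks, an overlap of 50% of the shorter peak, peaks of either library, windows 20 kb longer or 10 kb shorter on each side, leaving out single libraries, and a replicate block. The overlap code was tested on simulated data. Scripts ran with SciPy 1.17.1, pandas 2.3.3, NumPy 2.4.6 and Matplotlib 3.10.9 under Python 3.11.15.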

Additional observations from a re-analysis of the deposited data

How the results depend on the processing

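Of 116 values recomputed under the alternatives, 85 stayed close to the main value (counts within 1.5 times, shares within their Wilson interval), 30 moved further and 1 turned its sign. Mean Hox peaks per library were 17 in E14, 35.5 in P19 and 16 in 3T3 with the best-scoring 50% of each list, and 6 in E14, 22.5 in P19 and 47.5 in 3T3 with lists of 15462 peaks, where 3T3 and not P19 had the most. Reproducible regions then numbered 9, 28 and 10 (E14, P19, 3T3) with the best 50%, and 4, 15 and 33 with 15462 peaks, again with 3T3 above P19. Fewer peaks entered in both cases. Peaks of either library gave 70, 86 and 60 regions. Leaving out a library gave 49 to 50 regions in E14, 73 to 74 in P19 and 47 to 55 in 3T3. With 1 library of a line left, each of its peaks counted as a region, so these are its peak counts. The shares below without 1 library rest on the same looser rule for that line. The share of P19 Hox regions held by E14 was 25% with the best 50%, 20% with 15462 peaks, 62.8% with peaks of either library and 32.9% to 61.8% when a library was left out. The share of 3T3 regions held by E14 was 9.09% with 15462 peaks, 71.7% with either library and 34.5% to 63.9% without 1 library. 3T3 regions held by P19 came to 12.1% with 15462 peaks, against 33.7% genome-wide at that length. E14 regions held by 3T3 came to 75% with 15462 peaks, or 3 of 4 regions, against 30.9% genome-wide. P19 regions held by 3T3 came to 17.9% with the best 50%. E14 regions held by P19 ranged from 64% to 85.7% when a library was left out. The margin of 3T3 in HoxA was 16 with 15462 peaks, 3 with windows 20 kb longer and 5 to 6 without 1 library. The margin of P19 in HoxB was -3 with 15462 peaks, and 14 to 18 without 1 library. Values without 1 library thus differ from the main ones in the definition of a region too. The cause of the other shifts was not tested.

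Under a replicate block, in which replicate 1 met only replicate 1 and replicate 2 only replicate 2, the shares held were 48.3% (P19 by E14), 70.8% (E14 by P19), 54.5% (3T3 by E14), 54.9% (3T3 by P19), 54.7% (E14 by 3T3) and 37.4% (P19 by 3T3), each inside the interval of the main share. No shared origin of equal numbers is stated in the labels. Within the windows, libraries of E14 and 3T3 with the same number had a mean Jaccard index of 0.289, against 0.213 with different numbers. Only the replicate 2 pair stood higher, at 0.361. The replicate 1 pair lay at 0.216, between the 0.207 and 0.219 of different numbers. The means for same and different numbers were 0.326 and 0.327 for E14 with P19 and 0.209 and 0.211 for P19 with 3T3. Read depth, which would set how many weak sites a list can hold, is unknown.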
